A study of Cavia porcellus with 10 samples.

Results

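Transcripts of the desmosome genes were followed in the cervix of guinea pigs of the Hartley strain through pregnancy. The set was chosen by gene symbol and held 10 genes, the cadherins DSG2, DSG3, DSC2 and DSC3, the plakophilins PKP1, PKP2 and PKP3, plakoglobin (JUP), desmoplakin (DSP) and PERP. DSC3 had no row by that name, which left 9 genes among 25028 rows of the table, and all 9 passed the filter on low values that left 12645 genes for testing. RNA came from the vaginal portion of the cervix, 1 library per animal. The 3 animals named NP were not pregnant and in estrus, the 3 named MT were at midterm (gestation day 43.6 ± 0.5, SD), and the 4 named LT were at late term (day 65.2 ± 1.2, SD) and not in labor. All were sequenced as strand-specific polyadenylated RNA, with 20047660 to 27351763 counted reads in NP, 18730665 to 25380420 in MT and 25804572 to 27881572 in LT.

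A desmosome is a spot-like junction that ties the keratin filaments of neighbouring epithelial cells together. Desmogleins and desmocollins, its cadherins, reach across the gap between the cells. Inside each cell they bind plakoglobin and plakophilins, which hold desmoplakin, and desmoplakin binds the keratin filaments. Stratified squamous epithelium such as that of the vagina and outer cervix is rich in desmosomes, and DSG3, DSC3 and PKP1 are its characteristic forms, while DSG2, DSC2 and PKP2 are made in simple epithelium as well. PERP, a small membrane protein induced by the transcription factor p63, is needed for desmosome assembly in stratified epithelium.

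The mean abundance was lowest at MT for 7 of the 9 desmosome genes and highest at LT for 7 of them, but few of the differences passed a test. Abundance is given as TPM, read counts scaled for gene length and library size, so that levels of different genes can be set side by side. The summed TPM of the 9 genes was 2134, 1080 and 837.2 in the NP animals, 1814, 787.3 and 962.9 in the MT animals, and 1544, 2305, 2570 and 3189 in the LT animals. Animals overlapped between stages, because the first NP and the first MT animal (NP1 and MT1) lay above the lowest LT animal, LT1. From MT to LT, DSG2 and DSC2 rose and none fell, and from NP to LT only PERP passed the test among the 9. These tests were limma fits to log2(TPM + 1) over all 10 animals, and a gene was called at an adjusted p under 0.05 over all 12645 genes.

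**Figure D1:**
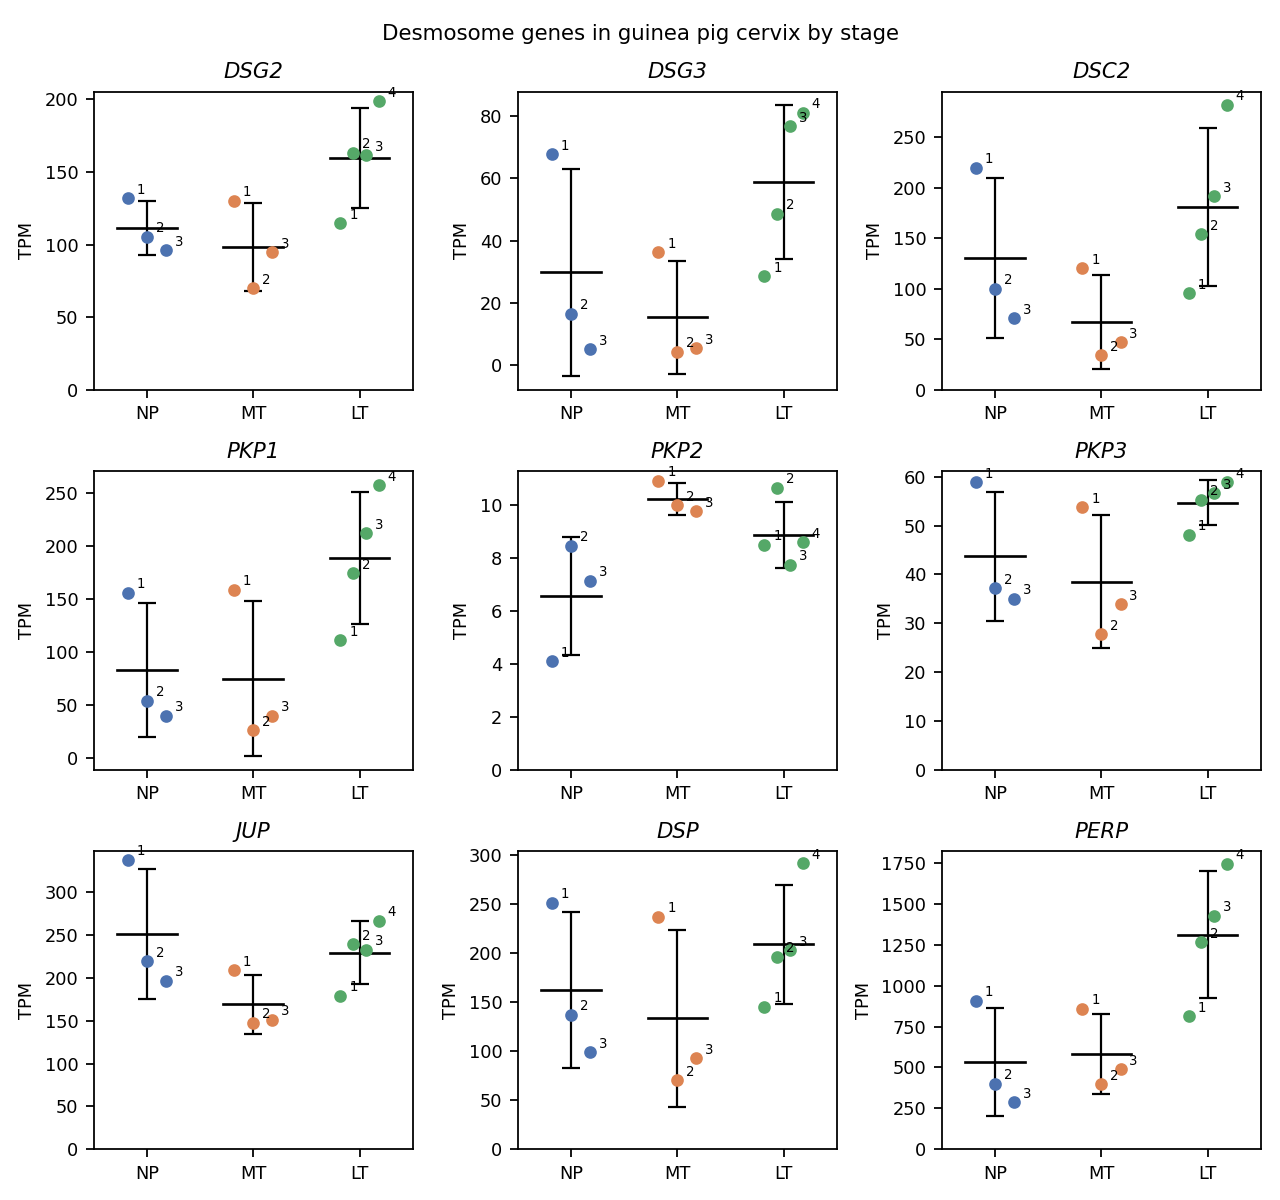
TPM (vertical axis) of the 9 desmosome genes in each animal at the NP, MT and LT stages (horizontal axis). Each point is 1 animal, labelled with its replicate number, and the lines give the stage mean ± SD (n = 3, 3 and 4). Animals NP1 and MT1 lie above the other animals of their stage in 8 panels (NP1) and in all 9 panels (MT1).

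Among the cadherins, DSG2 is the desmoglein found in nearly every tissue with desmosomes. Its TPM was 132, 105 and 96.3 in NP, 130.3, 70.0 and 94.8 in MT, and 115, 163, 162 and 199 in LT. LT2, LT3 and LT4 stood above all NP and MT animals, and LT1 lay among them. The mean was 111 ± 18.5 in NP, 98.4 ± 30.3 in MT and 159 ± 34.5 in LT (SD, n = 3, 3 and 4). DSG2 rose by 0.71 on the log2 scale from MT to LT (SE 0.23, adjusted p = 0.0413). The call was lost when single animals were left out, since the adjusted p was 0.0561 without NP2, 0.163 without MT2, 0.0951 without MT3, 0.0819 without LT2, 0.0874 without LT3 and 0.0999 without LT4. With 1 animal left out, the log2 difference ran from 0.49 to 0.93. An NP animal does not enter that difference, only the shared estimate of spread and the adjustment over genes. Without a filter on low values, the adjusted p was 0.0612. The NP to LT log2 difference was 0.50 (SE 0.23, adjusted p = 0.0877), and it passed the threshold in each of 4 rescaled fits (adjusted p 0.0254 in limma with median-ratio scaling of the TPM values, 0.0302 in edgeR with TMM, 0.0307 in edgeR with median-ratio size factors and 0.00755 in DESeq2) and without LT1 (0.0316). The last 3 of these rescaled fits also differ from the first in the model and in using counts, so a call they change cannot be put down to the scaling alone.

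DSC2, the desmocollin with the widest tissue distribution, had its lowest mean at midterm. Its TPM was 219.9, 99.97 and 70.7 in NP, 120.5, 34.2 and 47.0 in MT, and 95.7, 154, 191 and 282 in LT. MT2 and MT3 were the lowest of all 10 animals and LT4 was the highest, while MT1 lay between LT1 and LT2. DSC2 rose by 1.52 on the log2 scale from MT to LT (SE 0.51, adjusted p = 0.0484), with means of 67.2 ± 46.6 and 181 ± 78.2 TPM (SD, n = 3 and 4). That call too was lost without each of 6 animals, with adjusted p values of 0.0634 without NP2, 0.183 without MT2, 0.132 without MT3, 0.0792 without LT2, 0.103 without LT3 and 0.115 without LT4. In edgeR with TMM it was 0.0678, with median-ratio size factors 0.0684, on square-root TPM 0.0684 and without a filter 0.0737, against 0.0111 in DESeq2. Between NP and LT the log2 difference was 0.53 (SE 0.51, adjusted p = 0.401).

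DSG3, the desmoglein of the lower layers of stratified epithelium and a target of autoantibodies in pemphigus vulgaris, varied widely between animals of 1 stage. It reached 67.7 TPM in NP1 against 16.6 and 5.08 in the other NP animals. At MT it was 36.3 in MT1 and only 4.31 and 5.43 in the others, and the LT animals held 28.7, 48.6, 76.8 and 81.1. NP1 and MT1 therefore lay inside the LT range and the remaining 4 animals below it. The log2 difference from MT to LT was 2.35 (SE 0.86, 95% interval 0.45 to 4.26), the largest of the 9 genes, with an adjusted p = 0.0624. It fell under the threshold without NP1 (0.0263), without NP3 (0.0403), without MT1 (0.0231) and with the MT and LT animals fitted alone (0.0319).

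The plakophilins did not share 1 pattern. PKP1, which is made in the upper layers of stratified epithelium, had the same animals high as DSG3. Its TPM was 156, 53.9 and 39.8 in NP, 158, 25.8 and 39.5 in MT, and 111, 174, 212 and 257 in LT. NP1 and MT1 again lay in the LT range and the other NP and MT animals below it. The log2 differences were 1.70 from MT to LT (SE 0.62, adjusted p = 0.0636) and 1.36 from NP to LT (SE 0.62, adjusted p = 0.0895). Without MT1 they were 2.46 (adjusted p = 0.0129) and 1.36 (0.031), and without NP1 they were 1.70 (0.0353) and 1.94 (0.0239). With only the NP and LT animals in the fit, the second gave 0.0424.

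PKP2, the plakophilin of simple epithelium and heart muscle, ordered the animals differently. It was the lowest of the 9 genes in 7 animals, with 4.08, 8.45 and 7.13 TPM in NP, 10.9, 9.98 and 9.75 in MT, and 8.49, 10.6, 7.73 and 8.59 in LT. The lowest MT animal exceeded the highest NP animal, and NP1, which was high for the other 8 genes, was the lowest animal here. PKP2 was the only one of the 9 whose animals did not overlap from NP to MT, where 11.4% of all tested genes were higher at MT with no overlap between animals. The log2 difference from NP to MT was 0.62 (SE 0.21, 95% interval 0.14 to 1.09, adjusted p = 0.071). In the 4 rescaled fits this difference passed the threshold (0.74, adjusted p = 0.0165 in limma with median-ratio scaling, and 0.79 with 0.0215 in edgeR with TMM, 0.79 with 0.0212 in edgeR with median-ratio size factors and 0.79 with 0.00153 in DESeq2), as it did without NP2 (0.80, adjusted p = 0.0407). From NP to LT the difference of 0.42 (adjusted p = 0.0987) grew to between 0.71 and 0.76 in the same 4 fits, with adjusted p values from 0.00045 to 0.00758, was 0.61 with 0.0363 without NP2, and was 0.16 with 0.317 without NP1. Over the 3 stages, an exact permutation test of square-root TPM gave p = 0.0267 for PKP2, which was 0.114 without NP1, 0.0944 without MT1, 0.0754 without MT2, 0.0738 without MT3 and 0.0536 without LT1 or without LT4.

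PKP3, which is made in nearly all epithelia, passed the test in none of the comparisons. Its TPM was 58.9, 37.2 and 34.97 in NP, 53.8, 27.7 and 33.9 in MT, and 48.1, 55.2, 56.6 and 58.9 in LT. The LT animals were closer to each other than those of the other stages, MT1 lay within their range, and NP1 was level with LT4, the highest of them. Its log2 difference from MT to LT was 0.55 (SE 0.23, adjusted p = 0.0953), and the adjusted p was 0.0228 without MT1, 0.0457 without NP1 and 0.0489 in DESeq2. The NP to LT difference was 0.35 (adjusted p = 0.217), and 0.58 with 0.0416 without NP1.

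Of the plaque proteins, JUP is shared with the adherens junction, the actin-bound junction of the same cells. Its TPM was 338, 219.8 and 197 in NP, 209, 148 and 152 in MT, and 179, 239.6 and 233 in LT, with 267 in the last LT animal. MT2 and MT3 were the lowest and NP1 the highest of all 10. The log2 difference was -0.54 from NP to MT (SE 0.22, 95% interval -1.04 to -0.05, adjusted p = 0.112) and 0.44 from MT to LT (SE 0.21, adjusted p = 0.132). From NP to LT it was -0.10 (adjusted p = 0.692), and its sign turned in each of the 4 rescaled fits, to values from 0.14 to 0.22, as well as without NP1 (0.13) and without LT1 (0.01).

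DSP, the link to keratin, had 251, 137 and 98.6 TPM in NP, 237, 70.1 and 92.7 in MT, and 145, 196, 203 and 291 in LT. Stages overlapped throughout, and the log2 differences were -0.38, 0.80 and 0.43 for NP to MT, MT to LT and NP to LT, with adjusted p values of 0.59, 0.179 and 0.424. Without MT1, the MT to LT difference of DSP was 1.32 (adjusted p = 0.0322).

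PERP was the most abundant of the 9 genes in all 10 animals. It held 907, 402 and 288 TPM in NP, 858, 398 and 488 in MT, and 813, 1264, 1427 and 1745 in LT. LT2, LT3 and LT4 were above every other animal and LT1 was below NP1 and MT1. The mean was 532 ± 329.6 in NP, 581 ± 244 in MT and 1312 ± 388 in LT (SD, n = 3, 3 and 4). PERP rose from NP to LT by 1.42 on the log2 scale (SE 0.41, adjusted p = 0.015), and without NP2 or NP3 the adjusted p was 0.0565 or 0.0649. From MT to LT the difference was 1.20 (SE 0.41, adjusted p = 0.0504), on the other side of the threshold in 8 of 19 alternatives, among them DESeq2 (0.0104), median-ratio scaling (0.0472), square-root TPM (0.0423), the 2 stages alone (0.0238) and the fits without NP1 (0.0154), NP3 (0.0386), MT1 (0.0355) or LT1 (0.0349). An exact permutation test over the 3 stages gave p = 0.0429 for PERP on square-root TPM and p = 0.0605 on log2(TPM + 1), and leaving out 1 animal moved the first to between 0.0286 and 0.139. Each of 7 animals ended that call when left out, with exact p = 0.0849 without NP2, 0.0746 without NP3, 0.0714 without MT2, 0.0762 without MT3, 0.111 without LT2, 0.118 without LT3 and 0.139 without LT4.

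For the other 7 genes the exact permutation p over the 3 stages ran from 0.0643 for DSG2 to 0.385 for DSP. It passed 0.05 without MT1 for DSG2, PKP1 and PKP3, at exact p = 0.0325, 0.0302 and 0.0468, and without LT1 for DSG2 at exact p = 0.0143. These are raw values from 9 tests over the stages, beside 27 tests of pairs of stages. The smallest exact p that a pair of stages allows is 0.1 for 3 animals against 3 and 0.0286 for 3 against 4. None of the 27 went below 0.05, the lowest being 0.0571 for PKP3 from MT to LT.

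**Figure D2:**
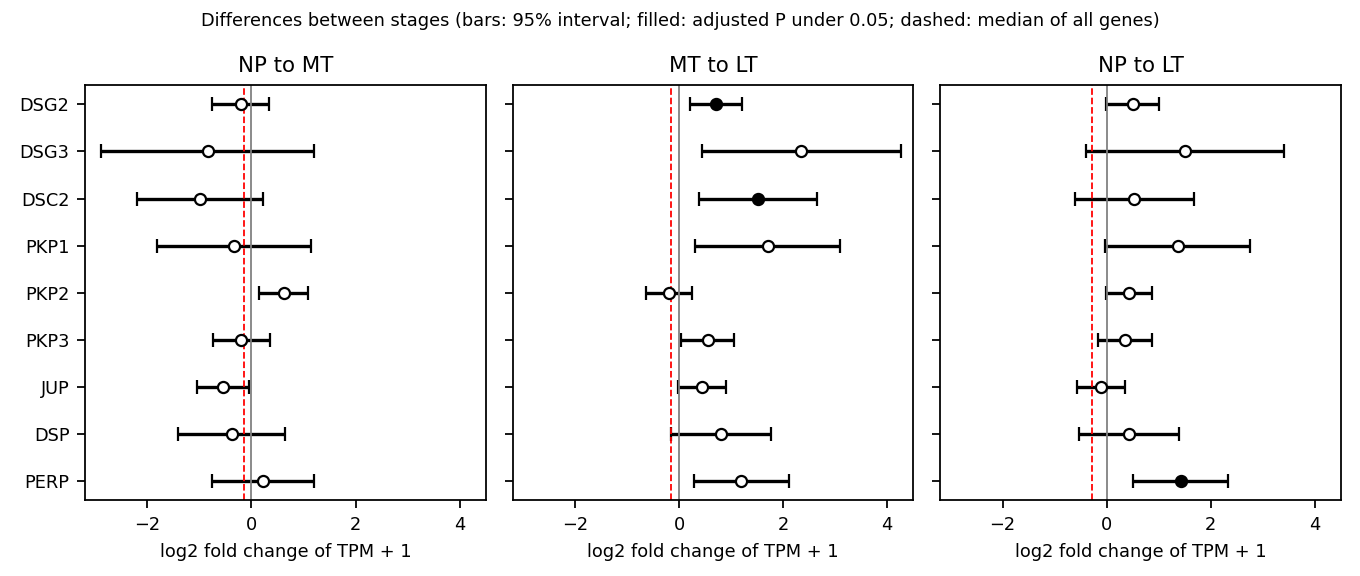
Log2 fold change of TPM + 1 (horizontal axis) of each desmosome gene (vertical axis) for NP to MT, MT to LT and NP to LT, with 95% intervals of the limma fit. Filled points passed an adjusted p of 0.05 (DSG2 and DSC2 from MT to LT, PERP from NP to LT), and the dashed line is the median of all 12645 tested genes, at -0.14, -0.16 and -0.28.

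The calls were set against those over the whole table. From NP to MT, 0 of the 9 were called and 18.5% of all tested genes were called in either direction. From MT to LT, 2 of 9 were called, both higher, where 6.73% of all tested genes were called higher and 29.4% in either direction. From NP to LT, 1 of 9 was called, higher, where 11.2% of all tested genes were called higher and 53.1% in either direction. None of the 9 had every LT animal above every MT animal, as 10.8% of all tested genes did, or above every NP animal, as 11.8% did.

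The signs of the differences, called or not, were as follows. From MT to LT, 8 of the 9 had a positive difference, PKP2 being the exception, and their median log2 difference was 0.80, while 34.3% of all tested genes had a positive difference and the median over them was -0.16. From NP to LT, 8 of the 9 were positive, JUP being the exception, with a median of 0.50 against -0.28 over all tested genes, of which 30.0% were positive. From NP to MT, 7 of the 9 were negative, PKP2 and PERP being the exceptions, with a median of -0.34 against -0.14 over all tested genes, of which 33.2% were positive. That pattern rested on single animals, since 5 of the 9 were positive without NP1 (median 0.035) and 5 without MT2 (median 0.007), and the median was -0.20 with median-ratio scaling and -0.11 with edgeR under TMM. The 9 genes were measured in the same animals and are not 9 independent observations. The 3 comparisons share animals, so a low MT mean enters the first and the second of them. Scaling each library to its median gene moved the median of all genes by 0.13, 0.17 and 0.31 (NP to MT, MT to LT and NP to LT), and the share of calls that were higher from 33.9 to 60.4% for NP to MT, from 22.9 to 49.7% for MT to LT and from 21.1 to 52.98% for NP to LT. The share of all tested genes with a positive difference became 49.6, 51.6 and 52.1%. With that scaling 14.6% of all tested genes were called higher from MT to LT, beside 3 of the 9 desmosome genes (DSG2, DSC2 and PERP), and 26.3% from NP to LT, also beside 3 (DSG2, PKP2 and PERP).

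Single animals carried much of the spread. NP1 held 2.23 times the mean desmosome sum of the other NP animals, and MT1 held 2.07 times that of the other MT animals. By gene, the ratio of NP1 to the other NP animals was 6.25 for DSG3, 3.32 for PKP1, 2.63 for PERP, 2.58 for DSC2, 2.13 for DSP, 1.63 for PKP3, 1.62 for JUP and 1.31 for DSG2, but 0.52 for PKP2. The ratio of MT1 to the other MT animals was 7.44 for DSG3, 4.86 for PKP1, 2.97 for DSC2 and 2.91 for DSP, and 1.11 for PKP2. The forms characteristic of stratified epithelium, DSG3 and PKP1, thus led both lists and PKP2 closed both. Without MT1, 7 of the 9 genes were called higher from MT to LT, all but PKP2 and JUP, where 6.09% of all tested genes were called higher, and without MT2 none was, where 2.95% were. Without NP1, 6 were called higher from MT to LT and 4 from NP to LT, against 9.72 and 11.2% of all tested genes. With NP2, MT3, LT2, LT3 or LT4 left out the count from MT to LT was 0, where 4.25 to 6.01% of all tested genes were called higher, without NP3 it was 4 (6.74%) and without LT1 it was 3 (6.30%). For NP to LT the count was 0 without NP3 and 2 without MT1 or LT1, where 9.52, 11.1 and 10.2% of all tested genes were called higher.

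Within the desmosome genes, the share of PERP was higher at each later stage. PERP made up 42.5, 37.2 and 34.4% of the summed TPM of the 9 genes in the NP animals, 47.3, 50.5 and 50.7% in the MT animals, and 52.7, 54.8, 55.6 and 54.7% in the LT animals. The 3 stages did not overlap in this share, which stood at 38.0% in NP, 49.5% in MT and 54.4% in LT on average. The share of JUP ran the other way, with 15.8, 20.4 and 23.5% in NP, 11.5, 18.8 and 15.7% in MT, and 11.6, 10.4, 9.07 and 8.36% in LT, and here MT1 lay among the LT animals. Both shares were picked out after their values were seen and are given without a test.

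**Figure D3:**
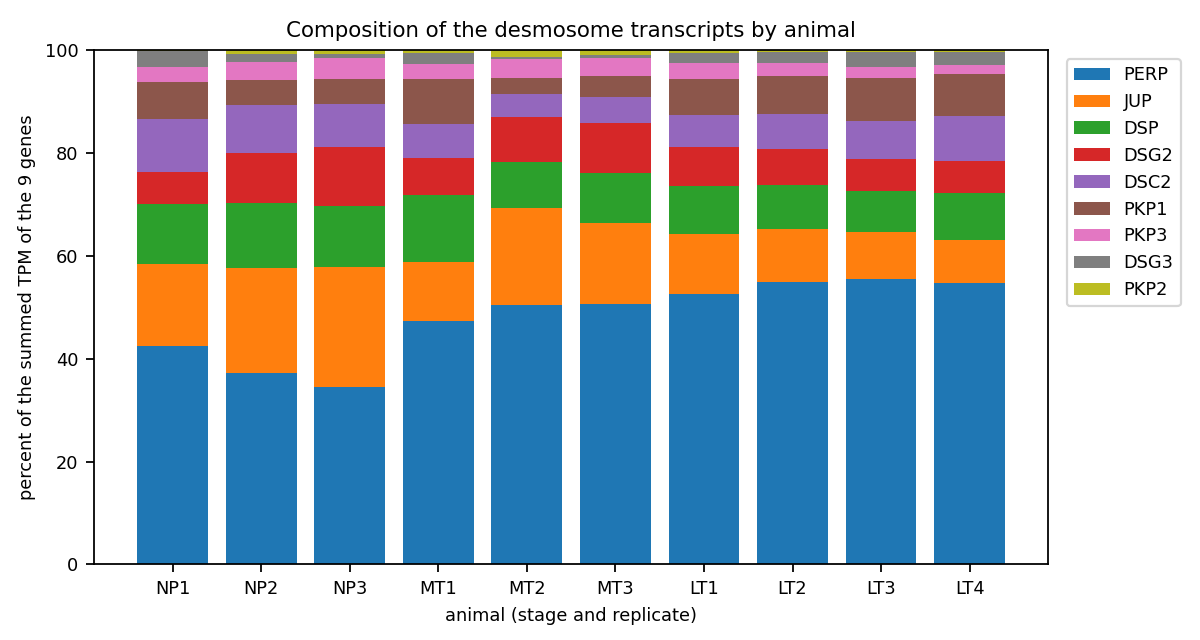
Share of each of the 9 genes in their summed TPM (vertical axis, percent) in each animal (horizontal axis). The PERP segment spans 34.4 to 42.5% in the NP animals, 47.3 to 50.7% in the MT animals and 52.7 to 55.6% in the LT animals, and JUP was the next in size on average.

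To set the stratified forms against the widespread forms, the log2 ratio of TPM + 1 was taken in each animal for DSG3 to DSG2 and for PKP1 to PKP2. A ratio of DSC3 to DSC2 could not be formed without a row for DSC3. The DSG3 to DSG2 ratio was -0.95, -2.60 and -4.00 in NP, -1.82, -3.74 and -3.90 in MT, and -1.96, -1.73, -1.06 and -1.28 in LT. DSG3 was thus below DSG2 in every animal, least so in NP1, MT1 and the LT animals. The mean ratio was -2.52 ± 1.53 in NP, -3.15 ± 1.16 in MT and -1.51 ± 0.41 in LT (SD, n = 3, 3 and 4). The difference from MT to LT was 1.64 (exact permutation p = 0.0571) and the test over the 3 stages gave exact p = 0.186.

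PKP1 exceeded PKP2 in every animal. Their log2 ratio was 4.95, 2.54 and 2.33 in NP, 3.74, 1.28 and 1.91 in MT, and 3.56, 3.91, 4.61 and 4.75 in LT. NP1 held the highest ratio and MT2 the lowest, and MT1 lay within the LT range. The mean was 3.27 ± 1.46, 2.31 ± 1.28 and 4.21 ± 0.57 (SD, n = 3, 3 and 4). The difference from MT to LT was 1.89 (exact permutation p = 0.0571), and over the 3 stages the exact p was 0.146. Neither ratio differed between stages beyond the spread between animals by these 8 tests, counting the 3 pairs of stages and the test over the stages for each ratio.

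**Figure D4:**
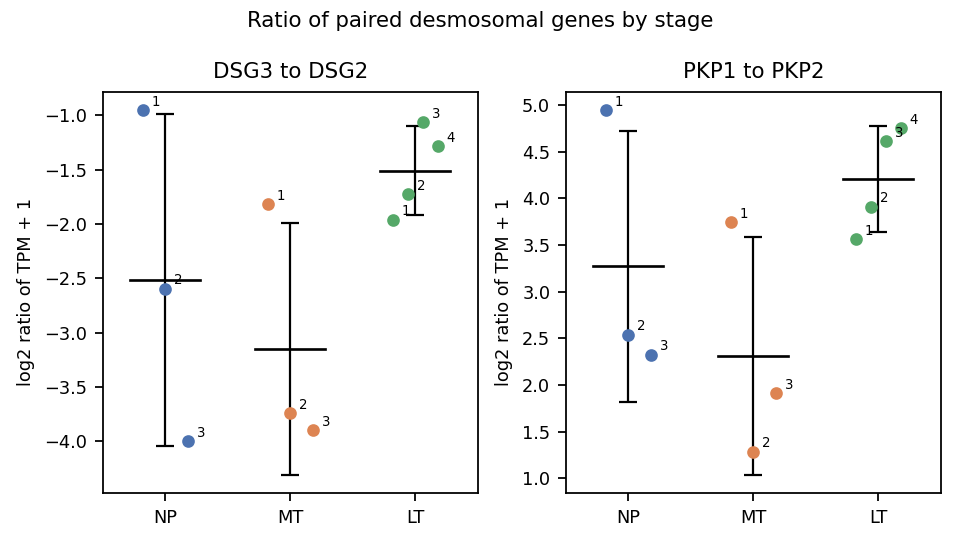
Log2 ratio of TPM + 1 (vertical axis) of DSG3 to DSG2 and of PKP1 to PKP2 in each animal by stage (horizontal axis), with the stage mean ± SD (n = 3, 3 and 4). MT2 and MT3 hold low values in both panels and the 4 LT animals lie between -1.96 and -1.06 on the left and between 3.56 and 4.75 on the right.

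The junction genes were also set beside the epithelial content of the samples. In whole tissue, fewer cells of a type and less RNA per cell cannot be told apart. The mean log2(TPM + 1) of 11 pan-epithelial markers, among them EPCAM, SPINT2 and CLDN7, was 6.53 ± 0.10 in NP, 6.56 ± 0.10 in MT and 6.78 ± 0.11 in LT (SD, n = 3, 3 and 4, exact permutation p = 0.0381 over the stages). Leaving out 1 animal ended that call for NP2, NP3, MT3, LT1, LT2 and LT4, with exact p = 0.0627, 0.0587, 0.0556, 0.075, 0.0821 and 0.0571. Of the 11 markers, 2 were called higher (EPCAM and AP1M2) and 2 lower (ELF3 and CLDN4) from NP to MT, against 6.27 and 12.2% of all tested genes. The call of CLDN4 held in only 1 of the 4 rescaled fits, DESeq2. None was called from MT to LT, where 29.4% of all tested genes were. A positive difference from MT to LT was seen in 10 of the 11 and in 34.3% of all tested genes. Between NP and LT, 5 were called higher (EPCAM, ESRP1, RAB25, AP1M2 and MARVELD3, all of them in the 4 rescaled fits too) and ELF3 lower, in none of those fits. Of all tested genes, 11.2% were called higher and 41.9% lower between NP and LT. Taken relative to these markers in the same animal, the MT to LT difference was 2.13 for DSG3 (exact p = 0.0571), 1.48 for PKP1 (exact p = 0.143), 1.30 for DSC2 (exact p = 0.114) and 0.98 for PERP (exact p = 0.0857). For PKP2 it was -0.41, with every LT animal below every MT animal, and its exact p of 0.0286 was the smallest that this design allows. The share of all tested genes that do the same on this scale was not computed. The marker mean itself rose by 0.22 from MT to LT, where the median log2 difference of all tested genes was -0.16. Without the markers, the MT to LT log2 difference of PKP2 was -0.19 (limma adjusted p = 0.492) and its animals overlapped. Over the 3 stages no gene passed 0.05 on this relative scale, the exact p running from 0.0862 for PKP2 to 0.472 for DSP, and only the fits without MT1 for PKP1 (exact p = 0.0333), without NP1 or NP2 for PKP2 (exact p = 0.0111 and 0.00476) and without NP1 for PERP (exact p = 0.0238) did. These are raw p values from 9 genes with 4 tests each.

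Keratins of stratified epithelium, taken as a sum, were high in the same animals as the desmosome genes. Of 12 keratins of stratified epithelium, 4 had a row (KRT1, KRT14, KRT78 and KRT80), and their summed TPM was 3129, 997.3 and 987.5 in NP, 1215, 146.7 and 385.6 in MT, and 1476, 2311, 2530.0 and 2907 in LT. KRT14 made up most of that sum, and NP1 held 3.15 and MT1 4.56 times the mean of the others of their stage. KRT14, the keratin of basal cells, rose from 548 to 2237 mean TPM between MT and LT (log2 difference 2.498, SE 0.64, adjusted p = 0.0184). KRT1 was called higher from NP to LT (3.59, adjusted p = 0.00535), with mean TPM of 3.54, 21.3 and 48.0 in NP, MT and LT. KRT78 was called lower from NP to MT (-3.67, adjusted p = 0.0173) and from NP to LT (-2.59, adjusted p = 0.0218), with mean TPM of 82.8, 2.86 and 6.39. KRT80 had mean TPM of 47.4, 9.97 and 14.1 and no call, so neither KRT78 nor KRT80 had its highest mean at LT. KRT7 was the 1 of 5 simple-epithelium keratins with a row, and it rose from 295 to 827 mean TPM between NP and MT (log2 difference 1.56, adjusted p = 0.00261). NP1 was the highest NP animal for KRT7 at 441.6 TPM, and MT1 was the lowest MT animal at 743.8. The 9 markers of columnar secretory cells, with AGR2, MUC5B and PIGR the most abundant, summed to between 125.8 and 439.0 TPM in NP, 2113 and 4472 in MT, and 6692 and 8251 in LT. NP1 was the lowest animal in this sum. MT1 was the highest MT animal at 4472, though without AGR2 it held 1568 against 1624 in MT3. AGR2 alone made up 87.6% of the mean sum at LT, and without AGR2 the mean sum was 146.2 in NP, 1352 in MT and 951.4 in LT, with NP1 again the lowest at 22.1. MUC5B had mean TPM of 75.8, 729.6 and 340.0 and PIGR 56.6, 298 and 261. TFF3 and MUC5AC of these were near 0 in NP, at 0.74 and 0.07 mean TPM. Of the 7 tested secretory markers, 6 were called higher from NP to MT, where 6.27% of all tested genes were, and the call of PIGR was lost in both edgeR fits (adjusted p 0.0729 and 0.0722). FOXA1, the one not called, had a log2 difference of -1.70 (adjusted p = 0.0625), and NP1 was its highest animal. How much of the desmosome values goes with the mix of stratified and secretory epithelium in each piece of cervix was not tested.

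**Figure D5:**
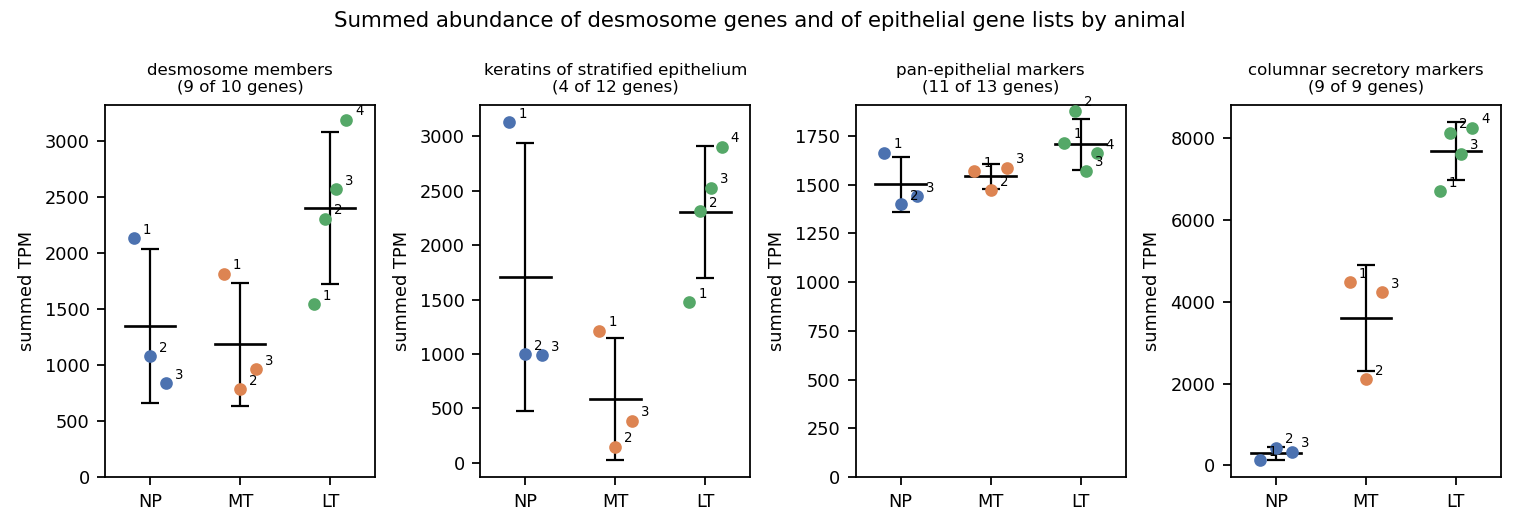
Summed TPM (vertical axes, each with its own scale) of the 9 desmosome genes, 4 keratins of stratified epithelium, 11 pan-epithelial markers and 9 columnar secretory markers, in each animal by stage (horizontal axis) with the stage mean ± SD (n = 3, 3 and 4). NP1 and MT1 stand above the others of their stage in the first and second panels, and the secretory sum, 87.6% AGR2 on average at LT, is between 125.8 and 439.0 in NP and between 6692 and 8251 in LT.

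Markers of the tissues around the epithelium were checked in the same way. The 6 smooth muscle markers summed to 5130.0 to 14810 TPM in NP, with NP1 the highest, 6894 to 10480 in MT, with MT1 the lowest, and 8816 to 15200 in LT. The 5 fibroblast markers with a row summed to 6001 to 10650 in NP, with NP1 the highest, 5239 to 9990 in MT, with MT1 the highest, and 6116 to 9198 in LT, with LT1 the highest. The 7 leukocyte markers with a row summed to 110.2 to 230.5 in NP, 133.4 to 151.4 in MT and 163.1 to 256.6 in LT, and NP1 and MT1 were the lowest of their stages. The 5 endothelial markers with a row summed to 91.1 to 119.7, 71.3 to 90.4 and 35.9 to 55.2, and all 5 were called lower from MT to LT, where 22.7% of all tested genes were, although the call of CDH5 held in only 1 of the 4 rescaled fits, DESeq2. Called from MT to LT among the other lists were SMTN (1.24, adjusted p = 0.0225), LUM (0.91, adjusted p = 0.00761) and CD14 (1.15, adjusted p = 0.0107), all higher, and PDGFRA, lower (-1.59, adjusted p = 0.00187), while COL1A1 and COL1A2, which made up most of the fibroblast sum, were not. The part of these tissues in the desmosome values was not tested.

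The other desmosome genes gave a mixed picture. DSG1, the desmoglein of the upper layers, had 94.6, 33.0 and 24.1 TPM in NP, 108, 10.8 and 11.1 in MT, and 57.4, 99.6, 125 and 196 in LT. NP1 and MT1 lay in the LT range and the other MT animals were the lowest of all 10. The log2 difference from MT to LT was 2.14 (SE 0.79, adjusted p = 0.0648). PKP4, a relative of the plakophilins also found at adherens junctions, fell by 0.80 on the log2 scale from NP to MT (adjusted p = 0.00309) and was lower by a log2 difference of -0.68 from NP to LT (adjusted p = 0.00123), with mean TPM of 77.3, 43.9 and 48.3. CDSN, corneodesmosin of the outermost layers, had a mean TPM of 5.01, 2.40 and 4.47 and no call. DSG4 and DSC1 had no row by that name.

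By profile, DSG1 and CWH43 were the named genes outside the set that lay closest to the desmosome genes. Each tested gene was standardised over the 10 animals on the log2(TPM + 1) scale and compared with the mean standardised profile of the 9 by the root mean square difference. A row without a gene name was nearest of all, at 0.112. The 5 nearest named genes outside the set were DSG1 (0.197), CWH43 (0.197), LY6G6C (0.205), MICALCL (0.225) and ALOX15B, a lipoxygenase (0.232). On the same measure PKP1 stood at 0.129, DSG3 at 0.212, PKP3 at 0.223, DSG2 at 0.232, DSP at 0.236, DSC2 at 0.289 and PERP at 0.352, although each of these is part of the mean. JUP stood at 0.624 and PKP2 at 1.44, and PKP2 ranked 4644 among the tested genes by this distance.

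The neighbouring junctions were set beside the desmosome genes. Of 10 adherens junction genes none was called from MT to LT, where 29.4% of all tested genes were, with a median log2 difference of 0.04, and the most abundant were CTNNB1 (462, 400 and 438 mean TPM in NP, MT and LT), CTNNA1 (234, 198 and 204) and CDH1, E-cadherin (150.0, 176 and 179). CDH3, P-cadherin, fell by 1.43 on the log2 scale from NP to MT (adjusted p = 0.00263) and by 1.61 from NP to LT (adjusted p = 0.000301). CTNND1 and MLLT4 were also called lower from NP to LT, at log2 differences of -0.41 for both, but in none of the 4 rescaled fits. That made 3 of the 10 called lower from NP to LT, where 41.9% of all tested genes were. From NP to MT it was 1 of the 10, where 12.2% were. Of 9 hemidesmosome genes, whose products fix the basal cell to its basement membrane, DST was called lower in all 3 comparisons (-0.74, -0.56 and -1.29, with the second held in DESeq2 only among the 4 rescaled fits) and LAMB3 higher from NP to MT (1.16, adjusted p = 0.0178) and from NP to LT (1.02, adjusted p = 0.00788). CD151 was called lower from NP to LT at -0.30, which none of the rescaled fits retained and median-ratio scaling turned to 0.03. Of the 9, 2 were thus called lower and 1 higher from NP to LT, against 41.9 and 11.2% of all tested genes. From NP to MT 1 was lower and 1 higher, against 12.2 and 6.27%. From MT to LT 1 was lower, against 22.7%. COL17A1 and ITGA6, the most abundant hemidesmosome genes after CD151, had mean TPM of 139, 108 and 116, and of 86.6, 69.0 and 85.3.

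Genes of the cornified envelope belong to the outermost layers of stratified epithelium. Of 9 tested, 6 were called lower from NP to MT (IVL, TGM1, CNFN, SBSN, CRCT1 and SPRR3) and the same 6 were called lower from NP to LT, where 12.2 and 41.9% of all tested genes were, while none was called from MT to LT. CRCT1 had a mean of 97.4 TPM in NP and 0.53 in MT and was listed at 0 in every LT animal, SBSN had 73.6, 0.38 and 0.98, and PPL, which binds desmosomes to the envelope, had 26.0, 18.9 and 22.7 with no call. The summed TPM of the 10 envelope genes with a row was 842.0, 223.0 and 76.9 in the NP animals, so NP1 was high in these genes too. All MT and LT animals lay between 28.6 and 67.1. The call of TGM1 from NP to LT was lost with median-ratio scaling (adjusted p = 0.103).

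Genes that cut desmosomes or restrain that cutting gave 5 tested entries of 8. From NP to MT 3 were called lower, where 12.2% of all tested genes were, the protease genes CTSL2 (log2 difference -1.63, adjusted p = 0.000913) and ADAM10 (-0.47, adjusted p = 0.0046) and SPINK5, an inhibitor of the kallikreins that cleave corneodesmosomes (-4.85, adjusted p = 0.00119). From MT to LT, SPINK5 (2.28, SE 0.57, adjusted p = 0.0163) and ST14, matriptase (0.47, SE 0.12, adjusted p = 0.0169), were called higher, where 6.73% of all tested genes were. SPINK5 remained at a mean of 6.92 TPM at LT against 59.1 in NP. From NP to LT, SPINK5, CTSL2, ADAM10 and ADAM17 were called lower, where 41.9% of all tested genes were, ADAM17 in none of the rescaled fits and ADAM10 in DESeq2 only.

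Of 10 regulators of epithelial differentiation and adhesion, 1 was called from NP to MT, 2 from MT to LT and 3 from NP to LT, against 18.5, 29.4 and 53.1% of all tested genes. SNAI2, a repressor of epithelial adhesion genes, rose by 1.34 on the log2 scale from NP to MT (SE 0.27, adjusted p = 0.00981) and fell by 0.98 from MT to LT (SE 0.26, adjusted p = 0.0191), with mean TPM of 127, 322 and 169. GRHL3, a factor of epithelial barrier formation, rose by 1.73 from MT to LT (SE 0.53, adjusted p = 0.0347), with mean TPM of 4.58 and 15.7, a call that edgeR did not make (adjusted p 0.0548 with TMM and 0.0553 with median-ratio size factors). KLF4 (1.97, adjusted p = 0.00169) and OVOL1 (0.67, adjusted p = 0.0229) were called higher from NP to LT and ZEB1 lower (-0.64, adjusted p = 0.00691, lost in all 4 rescaled fits). TP63, which encodes the master factor of stratified epithelium, had mean TPM of 39.2, 37.0 and 40.8 and no call.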

How the data were processed

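Cervix RNA of 10 guinea pigs (3 NP, 3 MT, 4 LT) was read as 1 × 75 bp strand-specific libraries. The authors aligned the reads to the Ensembl release 69 guinea pig genome with TopHat2 (after CASAVA 1.8.2) and deposited, for each gene, HTSeq 0.5.4p1 read counts and TPM values computed from them. Groups were taken from the labels. From the deposited values, genes with a stage mean of at least 3 TPM were tested with limma 3.58.1 (R 4.3.3) on log2(TPM + 1), with Benjamini-Hochberg adjustment over all tested genes. Exact permutation tests, all two-sided, used scipy 1.17.1 and numpy 2.4.6. edgeR 4.0.16 and DESeq2 1.42.0 on the counts, another pseudocount (0.1), square-root TPM, no filter, median-ratio scaling, 2 stages alone, a replicate block and leaving out each animal were alternatives. The limma script was tested on simulated data. Members and lists were chosen with earlier results of these data known. Named were the members, the 3 most abundant tested genes of each list, the genes of any count up to 5, and the 5 nearest profiles. A few further names were chosen after their values were seen. Not every gene that this rule names is reported here. Replicates are separate animals.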

Additional observations from a re-analysis of the deposited data

How the results depend on the processing

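The number of animals, 3 or 4 a stage, and the distance of NP1 and MT1 from the others of their stage limit what can be called here. PKP2, the least abundant of the 9 genes on average, had 236 to 685 counted reads per animal. Why the counts shift between fits was not tested. From NP to MT the count of desmosome genes called was 0 in limma and 1 (PKP2) with median-ratio scaling, with edgeR under TMM or median-ratio size factors and with DESeq2 (10.1 to 13.1% of all tested genes called higher), and it ran from 0 to 1 when animals were left out. From MT to LT it was 2 in limma (6.73% of all tested genes called higher), 0 without a filter (4.39%), 1 with edgeR under TMM or median-ratio size factors (13.4 and 13.1%), 4 with DESeq2 (17.4%) and 4 with the 2 stages alone (8.75%), and ran from 0 to 7 when animals were left out. From NP to LT it was 1 in limma (11.2%), 3 with median-ratio scaling, both edgeR fits and DESeq2 (23.6 to 26.3%), 2 with the 2 stages alone (10.6%), and ran from 0 to 4. Over all tested genes, the 2342 calls from NP to MT became 1113 with the 2 stages alone and 1099 to 4202 with animals left out, and the 3723 from MT to LT became 1944 to 5354.

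Where the sign of a desmosome gene turned, that difference had not been called. Leaving out 1 animal moved the NP to MT log2 difference of DSG2 between -0.43 and 0.012, DSG3 between -1.74 and 0.066, PKP1 between -1.10 and 0.24, PKP3 between -0.46 and 0.035 and PERP between -0.13 and 0.69. For JUP from NP to LT it ran from -0.26 to 0.13, and the difference was 0.22 with median-ratio scaling, 0.14 with edgeR under TMM, 0.14 with edgeR under median-ratio size factors and 0.14 with DESeq2. A pseudocount of 0.1 changed no call among the 9 genes, and neither ratio of paired genes passed 0.05 with that pseudocount or with any animal left out.

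The labels number the animals within stages, but different animals bear the same number, and deviations of same-numbered animals correlated between -0.29 and 0.25, so the numbers do not pair the samples. With the number as a replicate block, a fit in which LT4 has no partner and so adds nothing to the stage differences, 0 of the 9 genes were called in each of the 3 comparisons, and 1577, 1693 and 5448 of all tested genes were called from NP to MT, MT to LT and NP to LT.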
